A study of Mus musculus with 4 samples.

Results

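Phosphodiesterases are the enzymes that end cAMP and cGMP signals, and 10 of their genes that are known from brain were followed through RNA sequencing libraries of the parasubthalamic nucleus (PSTh), a small glutamatergic cell group at the edge of the lateral hypothalamus. The genes Pde1a, Pde1b, Pde1c, Pde2a, Pde4a, Pde4b, Pde4d, Pde7b, Pde8b and Pde10a were taken by name from tables of 25044 entries, and 10 of 10 passed the filter of a mean of 0.1 FPKM that 17630 entries passed. FPKM, the unit the values were taken to have, counts sequenced fragments relative to the length of the transcript and the size of the library. The 4 libraries, replicates 1 to 4, came from naive mice of the inbred strain C57BL/6 that had undergone no stress and carried no named allele or agent. The sources used here give no age, sex or pooling of animals, and with 1 group every comparison is between genes within a library or between libraries.

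Cyclic nucleotide phosphodiesterases hydrolyse cAMP, cGMP or both to inactive monophosphates and so set how long and how far a signal from an adenylyl or guanylyl cyclase reaches. Families differ in substrate and in what controls them: PDE1 enzymes are switched on by calcium and calmodulin, PDE2 by cGMP itself, PDE4 enzymes are the cAMP-specific targets of rolipram, PDE7 and PDE8 act on cAMP and resist rolipram, and PDE10A acts on both and is best known from striatal projection neurons. The receptor named in the title of the series, PAC1R, signals through cAMP, which these enzymes remove.

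The depth is not stated. Within a preset range of spacings, the best fit to low values multiplied by transcript length corresponded to between 19600000 and 21100000 fragments in a library. Only 30.7% to 35.5% of these products fitted that spacing, so the depth remains uncertain. Markers of neurons summed to between 1786 and 1983 FPKM and those of oligodendrocytes to between 5649 and 8196 FPKM. The 5 parasubthalamic markers, among them Tac1 and Adcyap1, were detected in each library and summed to between 294 and 468 FPKM. Single libraries stood apart in markers of neighbouring regions. The 5 thalamic markers summed to 321 FPKM in replicate 3 against 20.9 to 50.5 elsewhere. The 6 medial hypothalamic markers summed to 182 FPKM in replicate 2 against 12.6 to 36.2, and the 6 midbrain dopamine markers to 689 FPKM there against 316 to 360. In replicate 1 the 4 markers of caudal hindbrain and spinal cord summed to 16.5 FPKM against 0.0746 to 0.361. Of the 4 choroid plexus markers 3 were highest in replicate 4, where Ttr lay at 49.7 FPKM against 0.587 to 1.99. The other marker, Folr1, was highest in replicate 2. In such bulk tissue fewer cells of a type and less RNA per cell cannot be told apart.

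Pde1b and Pde4b were the most abundant of the 10 genes, Pde2a and Pde4a came next, and Pde1c was the lowest. The PDE1 family held the most abundant gene of the set and the least abundant one. Pde1b, a calcium- and calmodulin-activated enzyme that hydrolyses cGMP and cAMP, lay at 41.6, 36.4, 48.9 and 44.8 FPKM in replicates 1 to 4, a mean of 43.0 ± 5.27 (SD, n = 4). It stood at percentile 90.4 of all genes tested, and each of its 4 values was above each value of the other 9 genes. Pde1a, a close relative with the same activator, lay at 10, 10.8, 6.46 and 12.4 FPKM in replicates 1 to 4, a mean of 9.92 ± 2.51. Replicate 3 was low and the other libraries lay close together. Pde1c, which hydrolyses both nucleotides with like affinity, lay at 1.74, 1.47, 1.59 and 1.49 FPKM, a mean of 1.57 ± 0.125. The 4 values of Pde1c were below each value of the other 9 genes.

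**Figure D1:**
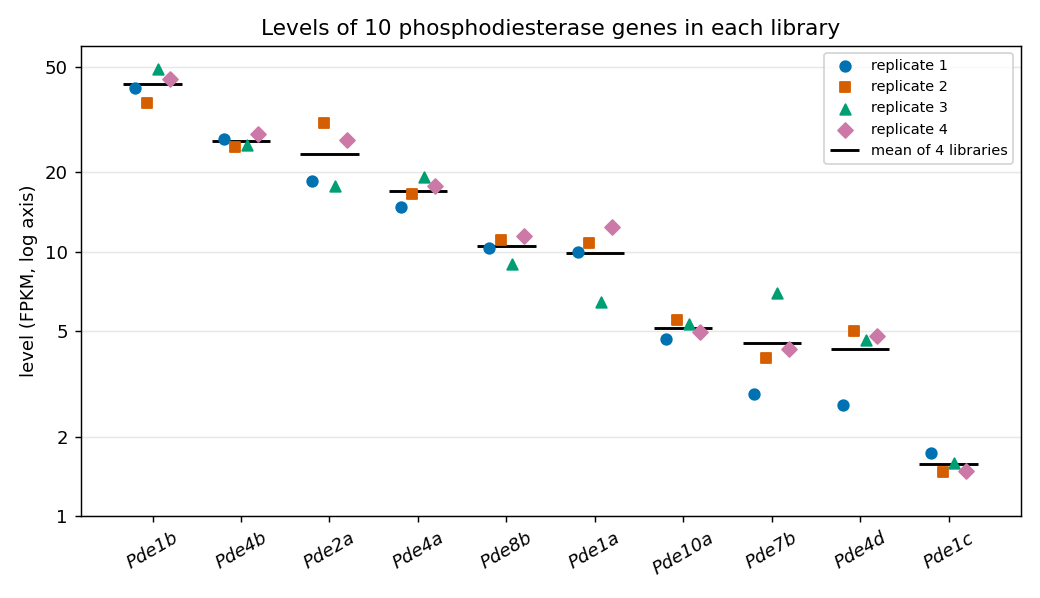
Level of each of the 10 phosphodiesterase genes in FPKM on a log axis, with a point per library and a bar at the mean of 4 libraries, ordered by mean. Pde1b, at a mean of 43.0 FPKM, and Pde1c, at 1.57 FPKM, form the ends of the order, and Pde2a, Pde1a, Pde7b and Pde4d show the widest scatter.

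The 3 PDE4 genes, which encode cAMP-specific enzymes, spread over most of that range. Pde4b lay at 26.6, 24.98, 25.2 and 27.96 FPKM in replicates 1 to 4, a mean of 26.2 ± 1.38 (SD, n = 4) and percentile 84.4. Its highest value was 1.12 times its lowest, the narrowest spread among the 10. Pde4a lay at 14.7, 16.5, 19.2 and 17.7 FPKM, a mean of 17.0 ± 1.88, below Pde4b in each library. Pde4d lay at 2.63, 5.04, 4.63 and 4.81 FPKM, a mean of 4.28 ± 1.11. Replicate 1 was low for Pde4d and the other libraries agreed closely with each other.

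The enzymes of Pde2a and Pde10a both act on cAMP and cGMP, and the levels of the genes lay far apart. Pde2a, whose enzyme cGMP activates, lay at 18.5, 30.7, 17.7 and 26.4 FPKM in replicates 1 to 4, a mean of 23.3 ± 6.275 (SD, n = 4). Replicates 2 and 4 were high and replicates 1 and 3 low. Pde10a lay at 4.68, 5.54, 5.35 and 4.98 FPKM, a mean of 5.14 ± 0.384, which put it at percentile 50.9, near the median gene tested. The 6 striatal markers, which include the dopamine receptor gene Drd1 and the adenosine receptor gene Adora2a, summed to between 34.3 and 38.7 FPKM, led by Ppp1r1b at a mean of 18.3 FPKM, while Drd1 lay at 0.919 to 1.33 FPKM.

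Of the members that encode rolipram-insensitive cAMP enzymes, Pde8b was more abundant than Pde7b. It lay at 10.4, 11.05, 9.02 and 11.5 FPKM in replicates 1 to 4, a mean of 10.5 ± 1.085 (SD, n = 4). Pde7b lay at 2.90, 3.95, 7.01 and 4.27 FPKM, a mean of 4.53 ± 1.75. Replicate 3 was the high library for Pde7b and the low one for Pde8b.

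Summed by family, PDE1 genes reached 54.4 ± 4.41 FPKM (SD, n = 4) and PDE4 genes 47.5 ± 2.85 FPKM. Pde1b made up 78.8% ± 4.93 of the PDE1 sum and Pde4b 55.3% ± 3.86 of the PDE4 sum. The PDE1 sum was above the PDE4 sum in 4 of 4 libraries, by 0.28, 0.07, 0.22 and 0.22 log2 units in replicates 1 to 4. The mean difference of 0.19 had p = 0.125 in an exact two-sided sign-flip permutation test, which is the smallest p that 4 libraries allow. Genes of enzymes that act on cAMP alone (PDE4, PDE7 and PDE8) made up 43.0% ± 1.27 of the summed level of the 10 genes, and genes of enzymes that act on both nucleotides the remaining 57.0% ± 1.27. These shares varied little even though single genes did: the PDE4 share lay between 31.7% and 33.8% while the PDE2 share lay between 12.2% and 21.0%. The split by substrate depends on which genes were listed: Pde8a and Pde7a, of the cAMP families, lie outside the 10, as do other phosphodiesterases.

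**Figure D2:**
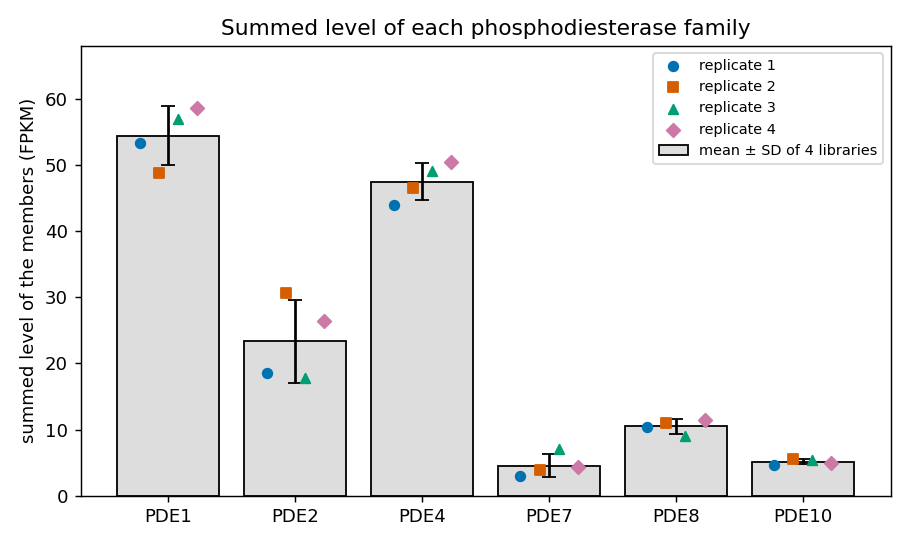
Summed FPKM of the members of each phosphodiesterase family, with bars at the mean, error bars of 1 SD over 4 libraries and a point per library. PDE1 at 54.4 FPKM and PDE4 at 47.5 FPKM hold most of the total, and PDE2, a single gene, has the largest SD in FPKM at 6.275.

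To place the genes on a common scale, each gene of the tables was set against Pde4b within the same library and tested with limma on log2(FPKM + 0.1), with Benjamini-Hochberg adjustment over 17629 genes. Of the other 9 members 1 was higher than Pde4b, 7 were lower and 1 did not pass. Over all genes compared, 13.4% were higher and 81.8% were lower, so the split of the members lay close to that of genes at large. Pde1b was higher by 0.70 log2 units (SE 0.09, adjusted p = 0.000892), a 1.63-fold difference on this scale that held in 4 of 4 libraries. Pde2a was at -0.20 (SE 0.17, adjusted p = 0.287) and above Pde4b in 1 of 4 libraries. Pde4a, the nearest of the lower genes, was at -0.62 (SE 0.09, adjusted p = 0.00176). Pde8b was at -1.32 (SE 0.08, adjusted p = 3.49e-05) and Pde1a at -1.43 (SE 0.16, adjusted p = 0.000464). Pde10a, Pde7b and Pde4d followed at -2.33, -2.58 and -2.63, and Pde1c was 15.8-fold lower at -3.98 (SE 0.07, adjusted p = 2.1e-06). Each of the 7 lower genes was below Pde4b in 4 of 4 libraries, and the median over the 9 members was -1.43 beside -2.41 over all genes tested.

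**Figure D3:**
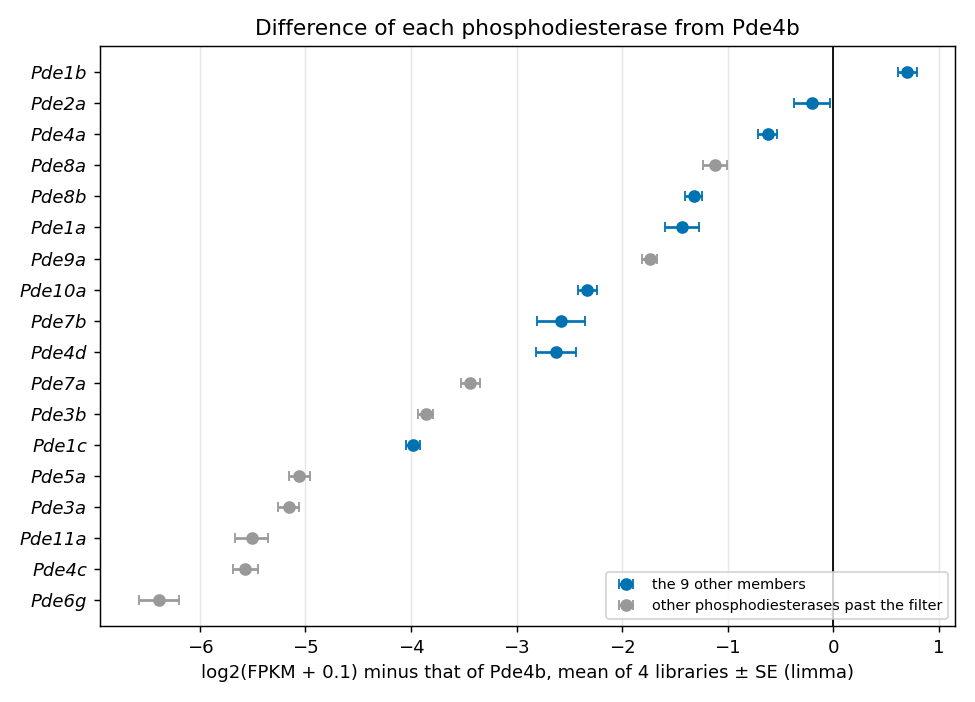
Difference of each phosphodiesterase gene from Pde4b in log2(FPKM + 0.1), as the mean of 4 libraries with its limma SE, for the other 9 members (blue) and for the other phosphodiesterase genes past the filter (grey). Pde1b lies to the right of 0 and Pde2a close to it at -0.20, and the remaining genes lie to the left, down to Pde6g at -6.39.

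The order of mean levels was Pde1b, Pde4b, Pde2a, Pde4a, Pde8b, Pde1a, Pde10a, Pde7b, Pde4d and Pde1c. Of the 9 pairs of neighbours in this order 4 differed in limma, called steps here, and 5 did not pass. The direction of each pair was set by the order itself. Of all 45 pairs of members, 39 lay in the same order in 4 of 4 libraries. That share was not computed for pairs of other genes. A member's being below its neighbour is read against the share of all genes that were below that neighbour. The first step lay between Pde1b and Pde4b, at -0.70 log2 units (SE 0.12, adjusted p = 0.00279), where 87.8% of all genes were lower than Pde1b. With Pde4b as the reference the SE of this same difference was 0.09. The prior variance was estimated anew for each reference gene, so SE and p depend on which gene of a pair is the reference. Pde2a did not separate from Pde4b, as above, nor Pde4a from Pde2a, at -0.42 (SE 0.24, adjusted p = 0.152) with 73.6% of genes lower than Pde2a. Pde4a was nonetheless lower than Pde4b, at -0.62 (SE 0.09), so a pair that did not pass is not shown to be equal in level. Pde8b was lower than Pde4a by a further step of -0.69 (SE 0.13, adjusted p = 0.00507), with 71.7% of genes lower than Pde4a.

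In the lower part of the order the levels of Pde8b and Pde1a ran together, at a difference of -0.11 (SE 0.12, adjusted p = 0.415), and 61.5% of genes were lower than Pde8b. Without replicate 3, the library in which Pde1a was low, this difference was 0.01. Pde10a was lower than Pde1a at -0.90 (SE 0.24, adjusted p = 0.0220), as were 54.0% of genes. That call was lost without replicate 1 (-0.84), 2 (-0.88) or 4 (-0.77), and on values multiplied back by transcript length (-0.04). Pde7b lay -0.25 from Pde10a (SE 0.19, adjusted p = 0.276), with 46.6% of genes lower than Pde10a, though it passed as lower without replicate 3, at -0.46, and on values multiplied back by length, at -0.78. Pde4d lay -0.05 from Pde7b (SE 0.26, adjusted p = 0.859) and 0.12 from it without replicate 3, with 36.6% of genes lower than Pde7b. Pde1c formed the last step at -1.35 from Pde4d (SE 0.27, adjusted p = 0.00815), where 37.6% of genes were lower than Pde4d. Multiplied back by length, that step was -0.34 and did not pass, since the longest annotated Pde1c transcript has 8766 bases and that of Pde4d 4207.

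The members also differed in how steady they were. Pde2a, Pde1a, Pde7b and Pde4d changed level between libraries by factors of 1.73 to 2.41, whereas Pde4b, Pde10a and Pde1c stayed within factors of 1.12 to 1.19. Set beside the 1000 genes nearest to it in level, Pde2a had a larger SD of log2 level than 97.4% of them, Pde1a than 96.3%, Pde7b than 96.1% and Pde4d than 93.6%. For Pde1c the figure was 12.6%, for Pde4b 28% and for Pde10a 29.0%. A limma test of each gene's variance against that of genes of like level called 0 of 17630 genes (0% of all genes), and 0 of 10 members. At an unadjusted p under 0.05 it held 1031 genes, 5.85% of all genes, and 4 of the 10 members, Pde2a, Pde7b, Pde1a and Pde4d. Their variance ratios were 12.8, 9.92, 9.81 and 6.65. These ratios moved with single libraries: without replicate 1 that of Pde4d was 0.169, without replicate 3 that of Pde1a was 1.98 and that of Pde7b 3.27, and without replicate 2 that of Pde2a was 7.29. Leaving out other libraries raised the ratio of Pde1a to 16.8 (without replicate 1) and that of Pde4d to 11.05 (without replicate 3). In limma the adjusted p-values of these genes were 0.616, 0.694, 0.694 and 0.831, so none passed. With a prior that was neither trended nor robust the number at an unadjusted p under 0.05 was 0 of 10, and without replicate 3 it was 2 of 10.

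The library that stood out was not the same for each of the 4 variable genes. Pde7b in replicate 3 was 1.89 times its mean in the other libraries, in the library whose thalamic marker sum was 9.39 times that of the others. All 5 thalamic markers were highest there, and the protein kinase gene Prkcd reached 172 FPKM. Other lists were also at an extreme in replicate 3. The oligodendrocyte sum was highest there at 8196 FPKM, with 5 of 6 markers highest. The sum for cortex and hippocampus was also highest there at 32.2 FPKM, of which Slc17a7 gave 30.6. Only 1 of those 6 markers, Slc17a7, was highest there, and Neurod6 was lowest. Both sums had the library order of Pde7b, whereas the thalamic sum was lowest in replicate 2. The parasubthalamic sum was lowest in replicate 3 at 294 FPKM, with 4 of 5 markers lowest. Without replicate 3 Pde7b had a mean of 3.71 FPKM. Pde1a in the same library was 1.71-fold lower than in the others, and the 3 lateral hypothalamic markers Pmch, Hcrt and Cartpt summed there to 170 FPKM against 440 to 758, although Cartpt by itself was lowest in replicate 1. Without replicate 3 Pde1a had a mean of 11.1 FPKM. The part of these tissue differences in the levels of Pde7b and Pde1a was not tested.

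Pde2a was highest in replicate 2, at 1.47 times the mean of the other libraries, and next highest in replicate 4. The medial hypothalamic marker sum took the same first and next places, at 182 and 36.2 FPKM, against 20.4 in replicate 1 and 12.6 in replicate 3, and 5 of 6 of these markers were highest in replicate 2, Avp at 90.5 FPKM. Of these, Pomc and Agrp were next highest in replicate 1. The microglial sum also took the same first and next places, at 89.7 and 82.2 FPKM, with 5 of 5 markers highest in replicate 2. The midbrain dopamine sum (689 FPKM, 5 of 6 markers) and the pituitary sum (13.1 FPKM, 3 of 5 markers) were highest there too. Without replicate 2 Pde2a had a mean of 20.9 FPKM. Pde4d in replicate 1 was 1.83-fold lower than in the other libraries. In that library all 6 oligodendrocyte markers were at their lowest, summing to 5649 FPKM against 6530 to 8196. The 5 microglial markers summed there to 73.0 FPKM against 77.8 to 89.7. All 4 of 4 markers of caudal hindbrain and spinal cord were at their highest. Other lists were also at an extreme in replicate 1. The parasubthalamic sum was highest there at 468 FPKM (4 of 5 markers), as was the subthalamic sum at 38.7 FPKM (2 of 3). The blood sum was 35.3 FPKM there against 2.365 to 11.8, with 3 of 3 markers highest. Without replicate 1 Pde4d had a mean of 4.825 FPKM. How far these markers bear on Pde2a and Pde4d was not tested.

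**Figure D4:**
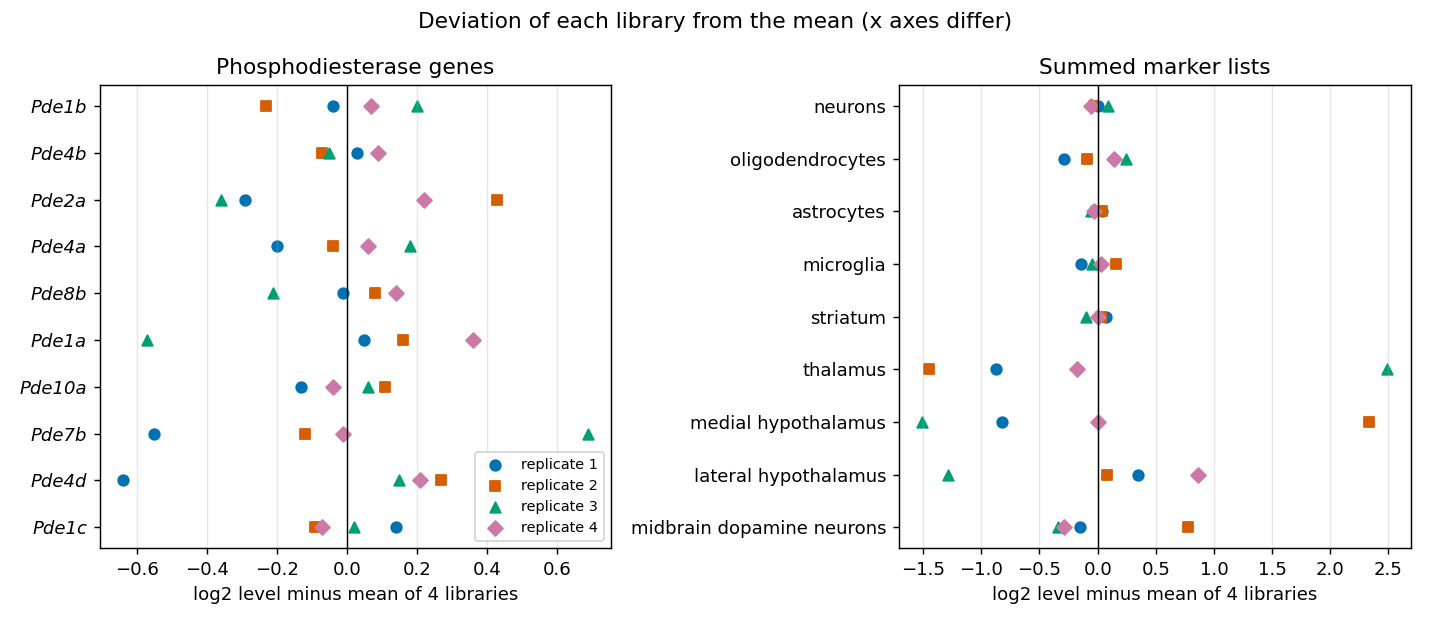
Log2 level of each library minus the mean of 4 libraries, for the 10 genes (left) and for a selection of the 19 summed marker lists of regions and cell types (right, on a wider axis), with a point per library. The lists not drawn include that of the parasubthalamic nucleus. Caudal hindbrain and spinal cord, also not drawn, lay 4.52 log2 units above its mean in replicate 1. Pde7b is high and Pde1a low in replicate 3, where the thalamic markers lie 2.49 log2 units above their mean, and Pde4d is low in replicate 1 at -0.64.

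For Pde7b and Pde4d, which had the largest SD of log2 level, the genes of nearest pattern were sought among 13043 others at a mean of 1 FPKM or more, by the root mean square distance of centred log2 levels over the 4 libraries. Nearest to Pde7b were Sbsn at a distance of 0.043 log2 units, Nfe2l3 at 0.055 and Sprn at 0.055. Nearest to Pde4d were Otud3 at 0.036, Siglech at 0.046 and Cx3cr1 at 0.056. Siglech and Cx3cr1 are known as genes of microglia. The microglial marker sum had the library order of Pde4d, and 3 of 5 microglial markers, Cx3cr1 among them, were lowest in replicate 1. Cx3cr1 had been picked for its likeness to Pde4d, so its low value there is not a separate observation. The markers Csf1r and P2ry12 were lowest in replicate 3, at 16.2 and 12.5 FPKM, beside 16.4 and 12.9 FPKM in replicate 1. With 4 points a pattern is easily matched, and 12 genes lay within 0.1 of Pde7b and 25 within 0.1 of Pde4d.

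The other cyclic nucleotide phosphodiesterases formed a list of 13 genes, of which 9 passed the filter and 9 were lower than Pde4b, as were 81.8% of all genes. Pde8a, the relative of Pde8b, lay at 9.91, 10.9, 13.8 and 13.7 FPKM in replicates 1 to 4, a mean of 12.1 ± 1.96 (SD, n = 4), close to the level of Pde8b. Pde9a, which encodes a cGMP-specific enzyme of high affinity, lay at 7.76 ± 0.269 FPKM, above Pde10a in each library. Pde7a at 2.34 ± 0.394 FPKM and Pde3b, a cGMP-inhibited enzyme known from insulin signalling, at 1.72 ± 0.139 FPKM lay near the lower members. Pde5a, Pde3a, Pde11a, Pde4c and Pde6g lay below 1 FPKM, and of the photoreceptor genes Pde6a, Pde6b, Pde6c and Pde6h none reached the filter, with Pde6c listed at 0 in 4 of 4 libraries.

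Genes that make, read or place the cyclic nucleotides gave the members their context. The counts stand beside the 13.4% of all genes that were higher than Pde4b and the 81.8% that were lower. Calmodulin, the activator of PDE1 enzymes, is encoded by 3 genes, and 3 of 3 were higher than Pde4b, with Calm2 at 858 ± 42.9 and Calm3 at 504 ± 22.6 FPKM (SD, n = 4). Of 8 cAMP targets 5 were higher than Pde4b and 3 lower, led by the protein kinase A subunits Prkar1b at 309 ± 20.4 and Prkar1a at 286 ± 19.3 FPKM. The list's median was 1.69 log2 units above Pde4b, beside -2.41 over all genes. Of 10 adenylyl cyclases 9 passed the filter and 9 were lower than Pde4b, though the most abundant were close to it: Adcy5 at 22.5 ± 0.887 FPKM was at -0.22 (SE 0.06, adjusted p = 0.0221) and Adcy2 at 21.9 ± 1.96 FPKM at -0.26 (SE 0.09, adjusted p = 0.0345). Adcy5 and Adcy2 did not pass without replicate 1, 3 or 4, with differences between -0.28 and -0.19, Adcy2 also not without moderation of the variance, and Adcy5 was at 0.48 on values multiplied back by length.

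On the cGMP side, 10 of 12 genes of synthesis passed the filter, with 1 higher than Pde4b and 9 lower. Over all genes 13.4% were higher and 81.8% lower, which also stands beside the 2 lists that follow. Gucy1b1, the beta subunit of the nitric oxide receptor, was the higher one at 31.6 ± 1.58 FPKM, by 0.27 log2 units (SE 0.06, adjusted p = 0.0105), and at -0.15 when multiplied back by length. Its partner Gucy1a1 lay at 11.9 ± 1.90 FPKM. Of 8 cGMP targets 5 passed the filter and 5 were lower than Pde4b, the most abundant being the kinase gene Prkg2 at 1.72 ± 0.481 FPKM and the channel gene Cngb1 at 1.08 ± 0.477 FPKM. Of 10 genes of proteins that bind or place phosphodiesterases, 2 were higher than Pde4b, 7 lower and 1 did not pass. Rack1, a scaffold that binds a PDE4D isoform, lay at 140 ± 7.305 FPKM.

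All 10 genes have several transcripts in GENCODE M21 (GRCm38), from 5 for Pde1b and Pde4a to 20 for Pde4d. A value was taken to sum over the transcripts of a gene, which the sources used here do not state. Pde1b (ENSMUSG00000022489, chromosome 15, 103503034 to 103530052) is the shortest locus at 27019 bases. Pde4d (ENSMUSG00000021699, chromosome 13, 108449948 to 109953461) is the longest at 1503514 bases, and Pde4b (ENSMUSG00000028525, chromosome 4, 102087543 to 102607259) spans 519717. Exons of another gene overlap those of 2 members: Gm45837, on the strand of Pde2a, had a mean of 0.00299 FPKM, and Gm48420, opposite Pde8b, is not among the entries. The sources used here do not say whether reads were assigned by strand.

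Because cAMP can drive transcription through CREB, the 250 bases before each RefSeq start of the members (31 starts, GRCm38.p6) were searched on both strands for the cAMP response element. The full element TGACGTCA was found before 0 of 31 starts, against 1.55% of all 32851 starts. Its shorter core TGACG, also part of the full element, was found before 3 of 31 (9.68%), against 17.8% of all starts, in Pde1a, Pde4b and Pde4a. The windows of Pde1a and Pde4a, which lie outside annotated exons of these genes, are shown 5′ to 3′ on the strand of the gene. The capitals mark CGTCA, which reads TGACG on the opposite strand. That of Pde1a is chr2:80039052-80039080 on the minus strand and that of Pde4a chr9:21184039-21184067 on the plus strand.
Pde1a: gtaacttcagccCGTCAttcctcagtaat
Pde4a: ggcacagctcgaCGTCAggctggggagga
The cores begin 166 and 50 bases before the start. The values, given per gene, do not show which start was used, and a match of letters is a description of the window only.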

How the data were processed

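Transcript levels came from 4 libraries of 1 group. RNA was extracted with TRIzol and made into libraries with a dual-mode mRNA kit, per the labels' protocols. The values the authors deposited were taken as FPKM from their behaviour, since no label or header names the unit. They rest on GRCm38, per the submitters' processing notes. The aligner, counting program, transcript models and strand setting were not given in the sources used here. Low values of genes with 1 annotated transcript were multiplied by transcript length, and the 407 to 454 smallest products in each library were kept. Between 30.7% and 35.5% of these products were whole multiples of a step to within 0.05 of that step. Read numbers could therefore not be recovered and no counting intervals are given.

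Symbols came from GENCODE M21, which matched 22022 of 22036 Ensembl identifiers. The scale was log2(FPKM + 0.1), on which low genes differ by less than their FPKM do, for entries with a mean of 0.1 or more. Differences from a reference gene within libraries were tested with limma 3.58.1 (R 4.3.3), intercept only, two-sided, with at most 1.63 prior degrees of freedom (the value when own levels were fitted), Benjamini-Hochberg adjustment over all genes and a threshold of 0.05. The variance test used a trended, robust prior with 4.28 degrees of freedom, one-sided. The procedures were tested on simulated data. Python 3.11.15 was used for the remaining steps.

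The members, lists and tests were chosen with earlier results of these data known. Genes named were all members, other phosphodiesterases at a mean of 1 FPKM or more, the 2 most abundant genes of each pathway list, the most abundant or most changed marker of a list named beside a member, and the 3 nearest genes in pattern; other names were chosen after their values were seen. Of the list of proteins that bind or place phosphodiesterases, 1 gene is not reported here. Since no label ties the replicates to separate animals, the p-values reflect the spread of these samples alone, which may be technical. Alternatives were other added values, filters, priors and scalings, and leaving out each library.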

Additional observations from a re-analysis of the deposited data

Results flagged for a closer look

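Of 27 values examined over the 4 libraries, 2 had a single library far from the rest by Dixon's test, where chance flags about 1 in 20. Prkar1b, a regulatory subunit of protein kinase A, was lowest in replicate 3 at 278.6 FPKM against 316.6 to 322.1 elsewhere. Prkg2, a cGMP-dependent protein kinase, was highest in replicate 3 at 2.431 FPKM against 1.383 to 1.554 elsewhere.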

How the results depend on the processing

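The counts of members against Pde4b, 1 higher and 7 lower, were the same under each alternative run: adding 1 or 0.01 before the logarithm, a filter of 1 FPKM or none, leaving out each library, an unlimited limma prior, no moderation, and values multiplied back by transcript length. The number of neighbouring pairs that differed was 4, and lay between 3 and 5 when a library was left out. The number of members at an unadjusted p under 0.05 for variance was 4, between 2 and 4 when a library was left out, and 0 with a prior that was neither trended nor robust, which changed both choices at once. Multiplied back by length, Adcy5 turned to 0.48 and Gucy1b1 to -0.15 against Pde4b. Without replicate 3, Pde1a turned to 0.01 above Pde8b and Pde4d to 0.12 above Pde7b. The ranges over the left-out libraries were -0.18 to 0.01 and -0.19 to 0.12. The cause of these turns was not tested, except that transcript length is what the length scaling changes. The difference of PDE1 and PDE4 sums lay between 0.17 and 0.24. No paired analysis was possible because there is 1 group, so no replicate number is shared between groups, and only genes were paired, within a library. The spread of 4 libraries and the unknown transcript models limit the order of the middle genes.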

Other observations

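Genes of cyclic nucleotide synthesis that were not among the most abundant of their lists also differed between libraries, and the following were chosen after their values were seen. Adcy1, a calcium- and calmodulin-stimulated adenylyl cyclase, lay at 17.8 FPKM in replicate 3, the library with the highest thalamic markers, against 5.24 to 7.52 FPKM in the others. Gucy2c, a receptor guanylyl cyclase known from midbrain dopamine neurons, lay at 4.45 FPKM in replicate 2, where the dopamine markers Th and Slc6a3 were highest, against 1.87 to 2.33 FPKM in the others. Neither relation was tested.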
